A study of Rattus norvegicus with 20 samples.

Results

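Soybeans of 2 cultivars were compared at the same share of dietary protein, one bred for a high isoflavone content and the other conventional, through the messenger RNAs of rat liver. The comparison takes 10 of the 20 arrays of the series, chosen by their titles: 5 rats on the 1:1 high-isoflavone diet and 5 rats on the conventional soybean diet. In the 1:1 high-isoflavone diet, casein and the cultivar Yukipirika each supplied the same amount of protein. In the conventional soybean diet, casein and the cultivar Fukuyutaka did so. The other 10 arrays came from 5 rats on a 3:1 high-isoflavone diet, with 3 parts of casein protein to 1 part from Yukipirika, and from 5 rats on casein alone at 200 g per kg. All were male Sprague-Dawley rats, 4 weeks old on arrival, kept for 5 days of adaptation and then 21 days on their diet. They were the 5 rats of each diet with an average food intake, out of 8 on the 1:1 high-isoflavone diet and 7 on each of the others. The 2 cultivars can differ in more than isoflavones, and the amounts of isoflavone in the diets, the hour of sampling and any fasting are not stated in the labels. Every array is a separate rat (n = 5 per diet), and values are log2 signals of an Affymetrix array that reads the 3′ end of transcripts, so a difference of 1 is a 2-fold difference.

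Isoflavones such as genistein and daidzein are plant phenols of soybean whose shape lets them bind estrogen receptors, and the liver conjugates them with sulfate and glucuronic acid. Soybean protein and isoflavones have been studied in the liver mainly for fat synthesis, fat burning and cholesterol. Mitochondria, where fat is burned, pass electrons along the respiratory chain to cytochrome c oxidase and make ATP with ATP synthase. Both enzymes combine large catalytic subunits with small nuclear-encoded ones that help in assembly and stability.

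With the high-isoflavone cultivar, a small group of transcripts was lower than with the conventional cultivar, and none was higher at the same threshold. Of 27702 probe sets, 21 had an adjusted p under 0.05 (limma, Benjamini-Hochberg over all probe sets, two-sided), which is 0.0758% of those tested, and all 21 were lower. Among them stood 4 small subunits of the respiratory chain and ATP synthase, a ribosomal protein and small proteins of transcription, DNA repair and mitochondrial import. The differences of the 21 probe sets lay between -0.55 and -1.45 with a median of -0.91, against a median of -0.02 over all 27702 probe sets. In each of the 21, all 5 arrays on the 1:1 high-isoflavone diet lay below all 5 on the conventional diet, a separation that 0.83% of all probe sets showed, with another 0.567% separated the other way (1.4% in all). No probe set was called higher by limma (at most 2 in any other setting), 825 were higher at an unadjusted p under 0.05, and the lowest adjusted p of a higher probe set was 0.0651. The number of arrays limits the precision, with a median standard error (SE) of 0.149 over all probe sets. The 15 called genes with a single symbol had a median length in RefSeq of 6931 bases, against 22276 over 13424 genes. Of the 15, 13 lay under that overall median. Among the 1343 shortest genes 57.8% lay below 0, and 19 were separated lower against 4 higher. Among the 1343 longest it was 53.0%, with 12 lower and 6 higher. Among 1343 genes with a median of 36493 bases it was 49.1%, with 5 lower and 15 higher. The part of gene length in the calls was not tested.

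The count of calls depended on single arrays. It was 11 without replicate 2 and 12 without replicate 1 of the 1:1 high-isoflavone diet, and 13 without replicate 3 and 11 without replicate 4 of the conventional diet. Without number 1 of all 4 diets it was 13, of which 9 were among the 21. In that setting the adjusted p was 0.0535 for Rpa3, 0.0551 for Slirp, 0.0868 for Timm8b, 0.177 for Cox6c and 0.192 for Atp5mk. All 21 probe sets stayed below 0 in all 30 other settings tried, and 6 of them were called in every one: Cox7b2, Polr2k, Cox7b, Sub1, Trappc2b and 4930522L14Rikl.

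**Figure D1:**
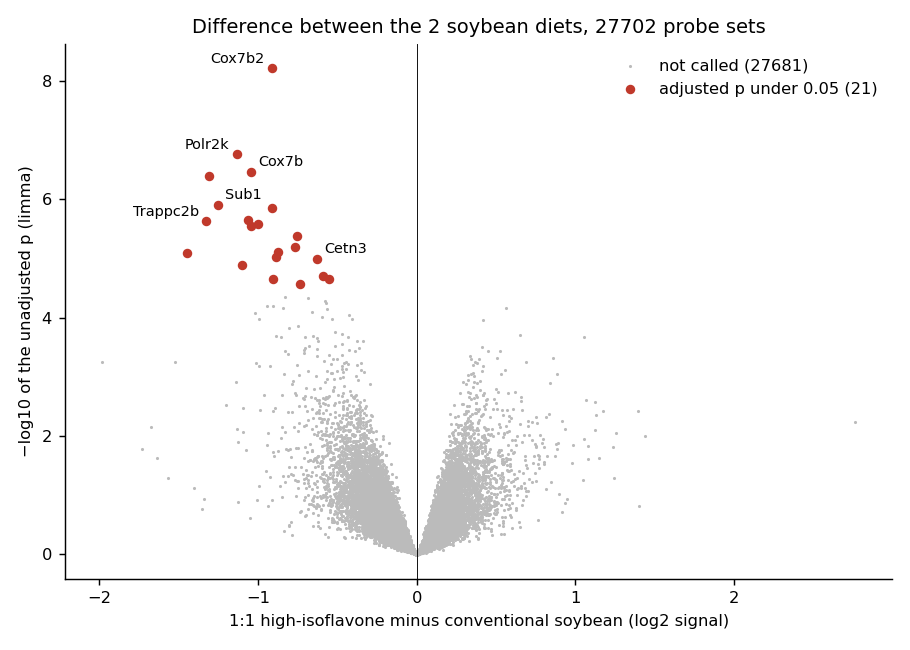
Each point is 1 of 27702 probe sets, with the difference of the 1:1 high-isoflavone diet minus the conventional soybean diet (log2 signal) on the horizontal axis and −log10 of the unadjusted limma p on the vertical axis. The 21 called probe sets, in red, all lie left of 0, with Cox7b2 at the top.

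The respiratory chain gave 4 of the 15 called probe sets that carry a single gene symbol. Cox7b encodes a small subunit of cytochrome c oxidase. Its signal was 6.24, 5.86, 6.46, 6.50 and 6.43 on the 1:1 high-isoflavone diet, against 7.53, 7.35, 7.32, 7.40 and 7.12 on the conventional diet. The highest array of the 1:1 diet lay 0.62 below the lowest array of the conventional diet, and the difference was -1.04 (SE 0.143, adjusted p = 0.00279), a level 2.06-fold lower.

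Cox7b2 is a paralog of Cox7b known from testis, and whether its probe set also reads Cox7b transcripts was not tested. It gave the lowest adjusted p of the comparison. The signals were 4.28, 4.15, 4.41, 4.16 and 4.37 on the 1:1 high-isoflavone diet, against 5.19, 5.09, 5.14, 5.31 and 5.19 on the conventional diet. The groups were apart by 0.67, several times the SD within either diet (0.12 on the 1:1 and 0.08 on the conventional diet), and the difference was -0.91 (SE 0.0977, adjusted p = 0.000168).

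Cox6c, another small subunit of cytochrome c oxidase, was measured at 6.88, 6.87, 7.32, 7.05 and 7.32 on the 1:1 high-isoflavone diet, against 7.63, 7.70, 7.71, 7.81 and 7.52 on the conventional diet. The difference was -0.59 (SE 0.108, adjusted p = 0.0305). Atp5mk, a small membrane subunit of ATP synthase that joins its dimers, was measured at 5.94, 5.78, 6.20, 5.96 and 6.14, against 6.62, 6.46, 6.65, 6.68 and 6.38 on the conventional diet. Its difference was -0.55 (SE 0.102, adjusted p = 0.0310). Both genes separated the diets by a narrow gap, and their calls were the least stable of the respiratory chain. Of 20 fits that each left out 1 array, the call was lost in 7 for Cox6c and in 8 for Atp5mk, and the adjusted p was at most 0.217 over all settings for either gene.

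The other respiratory chain genes give the measure of how far this extended. Of 79 measured genes of the chain and ATP synthase, 4 passed the test, all lower, against 0.104% of all 13468 genes. In 8 of the 79 the arrays of the 1:1 diet all lay below those of the conventional diet, against 0.824% of all genes, and in none did they all lie above. Those beyond the called genes were Cox7c, Ndufa4, Atp5if1 and Ndufa5, none of which passed. Cox7c, also a small subunit of cytochrome c oxidase, had a difference of -0.57 (SE 0.114, adjusted p = 0.0628). It passed when the dimmest probe sets were left out of the adjustment (adjusted p = 0.0491). Ndufa5, an accessory subunit of complex I, had -0.55 (adjusted p = 0.347), Ndufa4 had -0.37 (adjusted p = 0.150) and Atp5if1, the inhibitor of ATP synthase, had -0.56 (adjusted p = 0.211). Over the whole list 38 genes lay above 0 and 41 below, with a median of -0.01, the same as over all genes. At an unadjusted p under 0.05, 11 of the 79 were lower and 0 higher, against 4.02% and 3.27% of all genes.

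Mitochondrial import and RNA handling each gave 1 called gene. Timm8b encodes a small chaperone of the space between the mitochondrial membranes that escorts imported proteins. Its signal was 3.30, 2.82, 3.67, 3.68 and 3.65 on the 1:1 high-isoflavone diet, against 4.51, 4.53, 4.53, 4.65 and 4.12 on the conventional diet. The lowest array on the conventional diet lay apart from the other 4 there and still above every array of the 1:1 diet, and the difference was -1.04 (SE 0.165, adjusted p = 0.00767). The call was lost with the 10 compared arrays alone (adjusted p = 0.0550).

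Slirp binds and stabilises mitochondrial messenger RNAs, and in human cells it also binds SRA, an RNA coactivator of steroid receptors. Its signals were 2.65, 2.30, 3.14, 3.04 and 3.09 on the 1:1 high-isoflavone diet, against 3.91, 4.01, 3.84, 4.00 and 3.80 on the conventional diet. The groups were 0.66 apart and the difference was -1.06 (SE 0.166, adjusted p = 0.00767). Another probe set of Slirp went the other way, at 0.05 (SE 0.151, adjusted p = 0.975). It was of similar brightness, with a 20-array mean of 3.49, where the diet means of the called probe set ran from 2.84 to 4.09.

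Promoters of 4 called mitochondrial genes are shown here so that windows with and without a known motif of such genes can be read side by side. RefSeq promoter sequences were at hand for 10 of the 15 called genes with a single symbol, and the 250 bases before the start of the gene were searched on both strands. Capitals mark CCGGAAG or its reverse complement CTTCCGG, the core bound by ETS-family factors such as GABPA, which is known for its sites in genes of respiratory subunits. The regions, on build GRCr8 and printed 5′ to 3′ along the gene, are chr8:59850487-59850736 (plus strand) for Timm8b, chr6:112819434-112819683 (plus strand) for Slirp, chr1:255922048-255922297 (minus strand) for Atp5mk and chrX:75148786-75149035 (plus strand) for Cox7b.
Timm8b: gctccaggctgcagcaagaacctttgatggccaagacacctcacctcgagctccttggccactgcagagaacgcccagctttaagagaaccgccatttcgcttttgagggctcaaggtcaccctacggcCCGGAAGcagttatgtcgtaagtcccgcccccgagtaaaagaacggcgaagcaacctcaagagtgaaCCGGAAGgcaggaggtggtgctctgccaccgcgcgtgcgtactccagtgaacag
Slirp: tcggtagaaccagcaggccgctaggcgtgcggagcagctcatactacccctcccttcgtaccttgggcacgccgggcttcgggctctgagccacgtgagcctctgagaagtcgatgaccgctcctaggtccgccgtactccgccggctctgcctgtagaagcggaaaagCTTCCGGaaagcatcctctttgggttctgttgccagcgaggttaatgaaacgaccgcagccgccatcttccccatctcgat
Atp5mk: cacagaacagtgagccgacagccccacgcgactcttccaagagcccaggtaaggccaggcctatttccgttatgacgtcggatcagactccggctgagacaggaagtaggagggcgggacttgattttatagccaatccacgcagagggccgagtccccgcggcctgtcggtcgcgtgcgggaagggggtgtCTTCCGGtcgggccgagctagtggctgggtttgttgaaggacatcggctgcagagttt
Cox7b: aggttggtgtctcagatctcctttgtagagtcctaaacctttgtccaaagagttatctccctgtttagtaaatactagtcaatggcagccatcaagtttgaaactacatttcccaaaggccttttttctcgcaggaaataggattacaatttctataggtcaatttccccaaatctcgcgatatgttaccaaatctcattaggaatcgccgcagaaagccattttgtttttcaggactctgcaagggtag
The ETS letters occurred in 3 of the 10 promoters, those of Timm8b, Slirp and Atp5mk, and in 13.3% of the promoters of 11096 tested genes. In Timm8b they began 121 and 54 bases before the start, in Slirp 81 and in Atp5mk 58 bases before it, and the windows of Cox7b and of Cox7b2, which is not printed, held none. Of the 5 called mitochondrial genes with a promoter at hand, 3 thus held the letters. The share over all mitochondrial genes was not counted, so the 13.3% of all tested genes is no measure for these 5. The NRF1 letters GCGCATGCGC, of a factor also known from genes of the respiratory chain, were in 1 of the 10 (Trappc2b) and in 1.51% of all. A TATA box, TATAAA, was in 3 of the 10 and 7.77% of all, and CCAAT in 3 of the 10 and 35.0% of all. The palindromic estrogen response element GGTCANNNTGACC was in 0 of the 10 and in 0.0180% of all. In the printed windows no match of 1 motif overlapped a match of another.

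Transcription and DNA metabolism were represented by 3 called genes that each encode a small component of a larger machine. Polr2k is a small subunit shared by RNA polymerases I, II and III. Its signal was 3.42, 3.31, 3.84, 3.82 and 4.03 on the 1:1 high-isoflavone diet, against 4.83, 4.85, 4.83, 4.97 and 4.61 on the conventional diet. The difference was -1.14 (SE 0.149, adjusted p = 0.00238), with 0.58 between the groups.

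Sub1 encodes PC4, a coactivator of RNA polymerase II that binds single-stranded DNA. It was measured at 4.45, 3.89, 4.55, 4.62 and 4.84 on the 1:1 high-isoflavone diet, against 5.85, 5.87, 5.53, 5.77 and 5.60 on the conventional diet. The difference was -1.25 (SE 0.188, adjusted p = 0.00645), while a dimmer probe set of Sub1 had -0.24 and did not pass (adjusted p = 0.870). Rpa3, the smallest subunit of the replication protein A complex that coats single-stranded DNA, ranged from 3.48 to 4.14 on the 1:1 high-isoflavone diet, against 4.70 to 5.19 on the conventional diet. Its difference had a 95% interval from -1.33 to -0.67 (SE 0.158, adjusted p = 0.00767).

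Ribosome genes gave 2 called members, a structural protein and an assembly factor. Rpl26 is a protein of the large cytosolic subunit. It was measured at 7.27, 6.66, 7.35, 7.36 and 7.28 on the 1:1 high-isoflavone diet, against 8.37, 7.92, 7.98, 8.26 and 7.77 on the conventional diet. The difference was -0.87 (SE 0.149, adjusted p = 0.0161). Replicate 2 of the 1:1 diet was the lowest array, and without it the adjusted p was 0.0556. It was 0.0690 without replicate 4 of the conventional diet and 0.162 after centring and scaling each array. Rbis, a factor of ribosome assembly, ranged from 3.62 to 4.02 on the 1:1 high-isoflavone diet, against 4.67 to 4.81 on the conventional diet, with a difference of -0.89 (SE 0.154, adjusted p = 0.0173). Its call was lost in 5 of the 20 fits that left out 1 array, with an adjusted p of at most 0.111 in any setting.

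Other ribosomal proteins lay mostly below 0 by small amounts. Of 47 cytosolic ribosomal protein genes, 1 passed the test, 35 lay below 0 and 12 above, and the median was -0.09 against -0.01 over all genes. At an unadjusted p under 0.05, 11 were lower and 0 higher, against 4.02% and 3.27% of all genes. Rps24, of the small subunit, had a difference of -0.56 (SE 0.115, adjusted p = 0.0651), and Rpl39 had -0.43 (adjusted p = 0.150). Ribosomal proteins have many processed pseudogenes, and whether their probe sets read other transcripts was not tested.

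The remaining called genes belong to vesicle traffic and the cytoskeleton. Trappc2b, a subunit of the TRAPP complex that tethers vesicles on their way from the endoplasmic reticulum, ranged from 2.65 to 3.59 on the 1:1 high-isoflavone diet, against 4.21 to 4.58 on the conventional diet. It had the lowest difference among the called genes with a single symbol, -1.33 (SE 0.207, adjusted p = 0.00767), a level 2.51-fold lower. Cetn3, a centrin of the centrosome, ranged from 2.01 to 2.31, against 2.65 to 3.04 on the conventional diet, with a difference of -0.63 (SE 0.109, adjusted p = 0.0173). Its call was lost in 4 of the 20 fits that left out 1 array, and its highest adjusted p over all settings was 0.140.

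Eml4, a protein that binds microtubules, had 3 probe sets, of which 1 was called with a difference of -0.74 (SE 0.138, adjusted p = 0.0352). That probe set ranged from 1.35 to 1.75 on the 1:1 high-isoflavone diet, against 2.11 to 2.48 on the conventional diet. The other Eml4 probe sets were brighter, with 20-array means of 2.74 and 2.94. Their differences were -0.01 (adjusted p = 0.991) and 0.02 (adjusted p = 0.984), so Eml4 was not called when read from its brightest probe set. The call of the dimmest probe set was lost in 10 of the 20 fits that left out 1 array. 4930522L14Rikl, whose role is not given here, ranged from 0.86 to 1.65, against 2.53 to 3.05 on the conventional diet, with a difference of -1.31 (SE 0.182, adjusted p = 0.00279). Its probe set is of a kind that Affymetrix marks as able to match other transcripts. The signals of Eml4, Cetn3 and 4930522L14Rikl on the 1:1 diet lay below the medians of the 1:1 arrays, which ran from 2.45 to 2.57, and no detection calls were used here to say whether they stood above background.

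The other 6 called probe sets carry no single symbol: 4 have none listed and 2 have several. Their differences ran from -0.76 to -1.45. The lowest of all 21 was a probe set with no gene listed, at 3.06, 3.51, 4.21, 3.92 and 2.96 on the 1:1 high-isoflavone diet, against 4.43, 5.43, 4.99, 5.12 and 4.93 on the conventional diet. Its difference was -1.45 (SE 0.248, adjusted p = 0.0161), with the diets 0.22 apart.

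**Figure D2:**
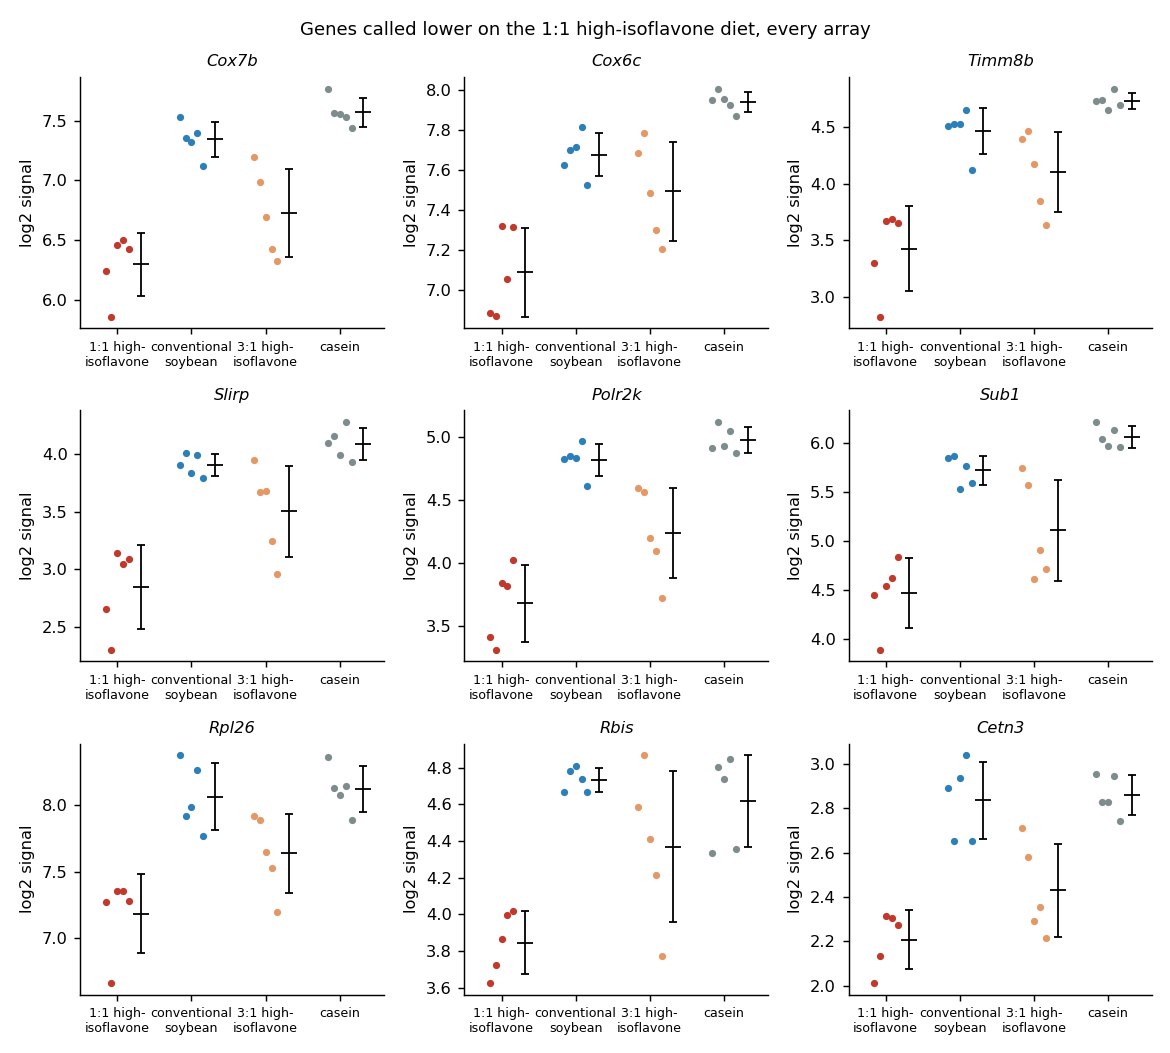
Log2 signal (vertical axis) of 9 called genes on every array, with the 1:1 high-isoflavone, conventional soybean, 3:1 high-isoflavone and casein diets from left to right (5 rats each). Bars give the mean ± SD beside the points; in each panel all red points of the 1:1 diet lie below all blue points of the conventional diet, as for Cox7b with 5.86 to 6.50 against 7.12 to 7.53.

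Next in order of evidence came 9 genes with separate diets that did not pass. Besides Cox7c and Rps24 they were Hs6st2, Cdca8, Ankib1, Eloc, Arhgap20, Atf5 and Fkbp3, and 8 of the 9 had lower signals on the 1:1 high-isoflavone diet. Over all 13468 genes, the arrays of the diets were separated lower in 111 (0.824%) and higher in 84 (0.624%). Eloc, the elongin C of ubiquitin ligases, had a difference of -0.60 (SE 0.125, adjusted p = 0.0780). Cdca8, a subunit of the chromosomal passenger complex of mitosis, had -1.02 (SE 0.210, adjusted p = 0.0715), and Hs6st2, a heparan sulfate sulfotransferase, had -0.66 (SE 0.135, adjusted p = 0.0715). Arhgap20, a GTPase-activating protein, had -0.99 (SE 0.210, adjusted p = 0.0780), and Fkbp3, a prolyl isomerase, had -0.80 (SE 0.174, adjusted p = 0.101). Ankib1, a ubiquitin ligase, had -0.42 (adjusted p = 0.0760), and dimmer probe sets of Ankib1 and Eloc had small differences of the other sign.

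Atf5 was the exception in sign. It encodes a transcription factor of the amino acid and mitochondrial stress responses. Its signal was 6.88, 7.16, 7.04, 6.95 and 6.83 on the 1:1 high-isoflavone diet, against 6.39, 6.70, 6.54, 6.40 and 6.74 on the conventional diet. The difference was 0.42 (SE 0.0876, adjusted p = 0.0780), and it passed without replicate 5 of the conventional diet (adjusted p = 0.0472). Atf5 averaged 6.97 ± 0.13 on the 1:1 high-isoflavone diet and 6.56 ± 0.16 on the conventional diet, with 6.93 ± 0.114 on the 3:1 diet and 6.95 ± 0.110 on casein (SD, n = 5 each), and the conventional diet had the lowest mean of the 4. The conventional diet minus casein, which shares arrays with the main comparison, was -0.39 (SE 0.0876, adjusted p = 0.0257). Other genes of the amino acid response did not pass either: of 27 measured, 17 lay above 0 and 10 below, with a median of 0.04 against -0.01 over all genes.

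The 3:1 high-isoflavone and casein arrays took no part in the difference between the 2 soybean diets, although all 20 arrays set the spread used in the test. They allow the 21 probe sets to be read again in 10 other rats, in a comparison where the 3:1 diet differs from casein by soybean itself as well as by cultivar. Averaged over the 21 probe sets, the level was 4.29 ± 0.195 on the 1:1 high-isoflavone diet, 5.25 ± 0.112 on the conventional diet, 4.76 ± 0.311 on the 3:1 high-isoflavone diet and 5.34 ± 0.0961 on casein (SD, n = 5 each). The 3:1 diet had the widest spread, from 4.33 to 5.12, and its arrays overlapped with the conventional diet, from 5.08 to 5.40. Its levels fell in the order of replicate number, at 5.12, 5.00, 4.69, 4.67 and 4.33. The series lists the diets in the order casein, conventional, 3:1 and 1:1. The part of array order in these levels was not tested. In the 3:1 diet minus casein all 21 probe sets lay below 0, as did 47.5% of all probe sets, and their median was -0.53 against 0.01 over all. In 9 of the 21 the 3:1 arrays all lay below the casein arrays, against 0.718% of all probe sets.

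Of the 21, 2 passed the test in the 3:1 diet minus casein, where 0.018% of all probe sets were called lower. Cox7b2 was at 4.69, 4.76, 4.48, 4.42 and 4.22 on the 3:1 high-isoflavone diet, against 5.17, 5.43, 5.38, 5.40 and 5.20 on casein, a difference of -0.80 (SE 0.0977, adjusted p = 0.00143). Cox7b was at 7.20, 6.99, 6.70, 6.43 and 6.33 on the 3:1 high-isoflavone diet, against 7.77, 7.56, 7.55, 7.53 and 7.44 on casein, a difference of -0.84 (SE 0.143, adjusted p = 0.0367). In both genes every 3:1 array lay below every casein array. Trappc2b had -1.11 (adjusted p = 0.0515), Sub1 -0.96 (adjusted p = 0.0617) and Atp5mk -0.53 (adjusted p = 0.0616), while Rbis had -0.25 (adjusted p = 0.738).

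Against casein, the 2 diets with equal parts of soybean protein stood apart in these probe sets, and these comparisons share the casein arrays with each other and the soybean arrays with the main comparison. The 1:1 high-isoflavone diet minus casein had all 21 below 0 with a median of -1.04, and all 21 were called, where 1.07% of all probe sets were called lower. The conventional diet minus casein had 18 of the 21 below 0, with a range from -0.34 to 0.38 and a median of -0.12, and 0 were called by limma (2 at an unadjusted p under 0.05), where 0.621% of all probe sets were called lower. The 1:1 minus the 3:1 high-isoflavone diet had 21 below 0 with a median of -0.45, and 0 were called by limma, as were 0 of all 27702 probe sets, with 18 and 2000 of them at an unadjusted p under 0.05.

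**Figure D3:**
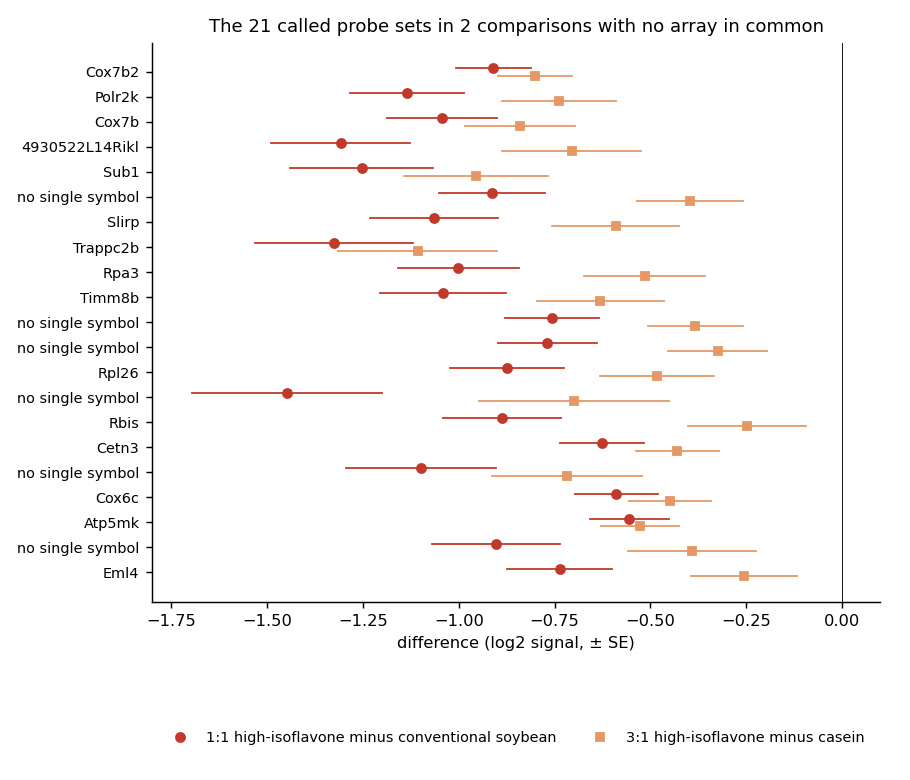
Difference ± SE (log2 signal, horizontal axis) of the 21 called probe sets, listed by gene from the lowest adjusted p at the top. Red circles give the 1:1 high-isoflavone minus the conventional soybean diet and orange squares the 3:1 high-isoflavone diet minus casein; all lie left of 0, and the squares run from -1.11 to -0.25.

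Fat burning genes mostly had higher signals with the high-isoflavone cultivar, though no gene passed the test. Of 26 genes of fatty acid oxidation and ketogenesis, 24 lay above 0 and 2 below, with a median of 0.21 against -0.01 over all genes. At an unadjusted p under 0.05, 14 were higher and 0 lower, against 3.27% and 4.02% of all genes, and in 3 the diets did not overlap, against 0.624% of all genes. Cpt2, the inner-membrane enzyme that readies fatty acids for oxidation, was at 4.91, 5.09, 5.11, 5.30 and 5.24 on the 1:1 high-isoflavone diet, against 4.79, 4.54, 4.38, 4.51 and 4.80 on the conventional diet. Its difference was 0.53 (SE 0.124, adjusted p = 0.150).

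Other genes of the list, several of them known targets of the fatty acid receptor PPARA, had larger differences with wider errors. Cyp4a3, a fatty acid hydroxylase, was at 7.27, 7.67, 7.22, 7.39 and 7.32 on the 1:1 high-isoflavone diet, against 7.08, 5.94, 5.89, 6.76 and 6.99 on the conventional diet, a difference of 0.84 (SE 0.226, adjusted p = 0.260). The arrays of the conventional diet were the more spread ones. Cyp4a1, a related hydroxylase, had 0.61 (SE 0.185, adjusted p = 0.403), and Pex11a, which divides peroxisomes, had 0.66 (SE 0.189, adjusted p = 0.349). Cpt1a, the gate of fatty acid entry into mitochondria, had 0.79 (SE 0.293, adjusted p = 0.566), and Fgf21, a fasting hormone of the liver, had 0.66 (SE 0.344, adjusted p = 0.732).

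These genes did not follow the order of the called probe sets across the diets. Cpt2 averaged 5.13 ± 0.15 on the 1:1 high-isoflavone diet and 4.60 ± 0.19 on the conventional diet, with 4.88 ± 0.195 on the 3:1 diet and 4.90 ± 0.258 on casein (SD, n = 5 each). Pex11a averaged 3.67 ± 0.41 on the 1:1 high-isoflavone diet and 3.01 ± 0.32 on the conventional diet, with 3.65 ± 0.233 on the 3:1 diet and 3.68 ± 0.321 on casein. In both genes the conventional diet had the lowest mean, and in Pex11a the means of the other 3 diets ran from 3.65 to 3.68. The conventional diet minus casein, which shares arrays with the main comparison, had -0.67 for Pex11a (adjusted p = 0.0715) and -0.30 for Cpt2 (adjusted p = 0.223). Over the whole list, the median difference from casein was -0.22 on the conventional diet and 0.08 on the 1:1 high-isoflavone diet. On the 3:1 diet it was -0.01. Over all genes these medians were 0.04, 0.03 and 0.01.

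**Figure D4:**
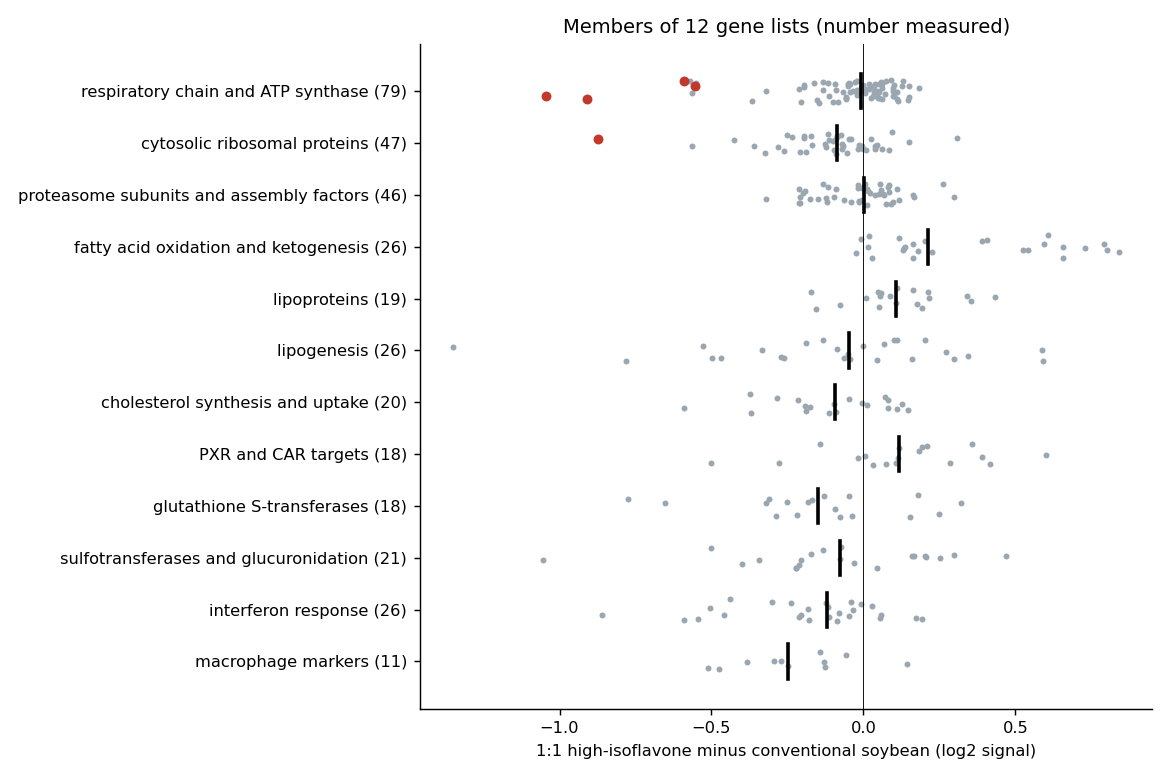
Each point is a measured gene of 1 of 12 lists (number measured in brackets), with its difference of the 1:1 high-isoflavone minus the conventional soybean diet (log2 signal) on the horizontal axis, red where called; black bars mark list medians. Points of fatty acid oxidation lie mostly right of 0 (24 of 26), and the respiratory chain has 4 called genes far left of a body centred on -0.01.

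Fat synthesis did not differ detectably between the cultivars at 5 rats a diet. Of 26 lipogenic genes 12 lay above 0 and 14 below, the median was -0.05, and 0 passed by limma, with 3 higher and 1 lower at an unadjusted p under 0.05. Pnpla3, a lipase of lipid droplets that follows fat synthesis, was at 2.33, 1.93, 5.44, 1.61 and 4.37 on the 1:1 high-isoflavone diet, against 5.19, 6.07, 0.84, 6.31 and 4.01 on the conventional diet. The diets overlapped widely, and the difference of -1.35 had a 95% interval from -3.31 to 0.61 (adjusted p = 0.826). Fasn, the fatty acid synthase, had a difference of -0.50 with an interval from -1.60 to 0.61, and Thrsp, a regulator of lipogenesis, had -0.78 with an interval from -1.54 to -0.02 (adjusted p = 0.703). Fads2, a desaturase, had 0.30 with an interval from -0.13 to 0.73, and Acaca, which makes malonyl-CoA, had 0.00 with an interval from -0.56 to 0.56. These intervals are for single genes, without adjustment. Averaged over the list as deviations from the 20-array mean, the level was -0.36 ± 0.28 on the 1:1 high-isoflavone diet and -0.27 ± 0.39 on the conventional diet (SD, n = 5 each). Replicate 3 of the conventional diet stood apart at -0.95, and the other 4 arrays there averaged -0.10 ± 0.11 (SD, n = 4). Without that array the difference was -2.26 for Pnpla3, -0.92 for Fasn, -0.22 for Acaca and -0.19 for Scd, a desaturase. It was also below 0 for Thrsp (-0.93), Elovl6 (-0.85) and Srebf1 (-0.31). Above 0 were Elovl2 (0.59), Agpat2 (0.19), Fads2 (0.13) and Me1 (0.01), and none of these genes passed (lowest adjusted p = 0.659). With replicate 3 included, Scd had 0.11.

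**Figure D5:**
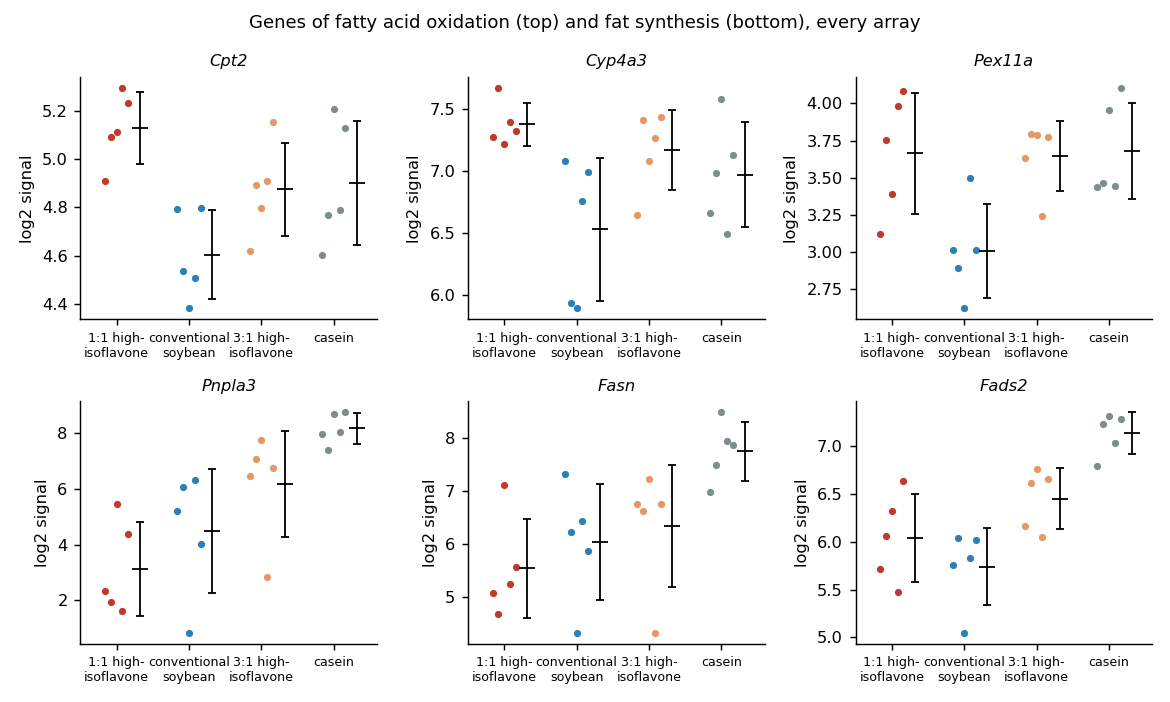
Log2 signal (vertical axis) of 3 genes of fatty acid oxidation and 3 of fat synthesis on every array, with the 1:1 high-isoflavone, conventional soybean, 3:1 high-isoflavone and casein diets from left to right (5 rats each, mean ± SD beside the points). Cpt2 separates the first pair of diets, at 4.91 to 5.30 against 4.38 to 4.80, while Pnpla3 spreads from 1.61 to 5.44 and from 0.84 to 6.31 in them.

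Sterol and lipoprotein genes gave no call. Of 20 genes of cholesterol synthesis and uptake, 13 lay below 0 and 7 above, with a median of -0.09, and 1 was lower at an unadjusted p under 0.05. Pmvk, a kinase of the mevalonate pathway, was at 3.93, 3.46, 3.76, 3.40 and 4.09 on the 1:1 high-isoflavone diet, against 4.35, 4.44, 3.94, 4.40 and 4.46 on the conventional diet, a difference of -0.59 (SE 0.170, adjusted p = 0.350). Lss, which closes the sterol rings, had -0.37 (adjusted p = 0.858). Of 19 lipoprotein genes, 16 lay above 0 and 3 below, with a median of 0.11, and 3 were higher at an unadjusted p under 0.05. Apoa4, an apolipoprotein of triglyceride-rich particles, had 0.43 (SE 0.146, adjusted p = 0.482) and Apob, the structural protein of very-low-density lipoprotein, had 0.21 (SE 0.0772, adjusted p = 0.560). Apob did not overlap between the diets, at 9.08 to 9.42 on the 1:1 high-isoflavone diet, against 8.84 to 9.04 on the conventional diet, and a dimmer probe set of it had -0.08. Cyp7a1, the rate-limiting enzyme of bile acid synthesis, had -0.19 with an interval from -1.16 to 0.79, and 12 of 19 genes of bile acid handling and sterol export lay above 0, 2 of them at an unadjusted p under 0.05.

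Genes through which isoflavones could act or be cleared were read as well, and none passed. Of 20 estrogen receptor and estrogen-responsive liver genes, 12 lay above 0 and 8 below, with a median of 0.05, and at an unadjusted p under 0.05 3 were higher and 1 lower. Agt, angiotensinogen, had a difference of 0.32 (SE 0.0854, adjusted p = 0.250). Hamp, the iron hormone hepcidin, had the largest difference of any gene, 2.76 (SE 0.897, adjusted p = 0.462). It was at 7.42, 5.93, 6.93, 7.15 and 8.12 on the 1:1 high-isoflavone diet, against 6.71, 5.28, 0.91, 1.29 and 7.55 on the conventional diet. The difference rested on replicates 3 and 4 of the conventional diet, and the other 3 arrays there overlapped with the 1:1 diet.

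Conjugation and detoxification genes had no called member. Of 21 sulfotransferase and glucuronidation genes, 13 lay below 0 and 8 above, with a median of -0.08, and 1 was lower at an unadjusted p under 0.05. Sult1e1, the estrogen sulfotransferase, had -0.21 with an interval from -0.77 to 0.36, and Ugdh, which makes the donor for glucuronidation, had 0.20 (adjusted p = 0.716). Of 18 glutathione S-transferases, 14 lay below 0 with a median of -0.15, 3 of them at an unadjusted p under 0.05, and Mgst3 had -0.29 (adjusted p = 0.546). Of 18 targets of the drug receptors PXR and CAR, 14 lay above 0 with a median of 0.12, 2 of them at an unadjusted p under 0.05, and Cyp2c7, a steroid-metabolising cytochrome, had 0.39 (SE 0.133, adjusted p = 0.498). Its arrays did not overlap, at 9.82 to 10.37 on the 1:1 high-isoflavone diet, against 9.70 to 9.81 on the conventional diet. Of 21 NRF2 targets and antioxidant genes, 11 lay above 0, 1 was higher and 1 lower at an unadjusted p under 0.05, and Txn1, thioredoxin, did not overlap between the diets, with a difference of -0.38 (SE 0.0939, adjusted p = 0.187).

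The makeup of the tissue and the quality of the arrays were read beside these results. Albumin (Alb), the main plasma protein made by hepatocytes, was at 10.26 ± 0.17 on the 1:1 high-isoflavone diet and 10.18 ± 0.10 on the conventional diet (SD, n = 5 each). The 9 hepatocyte markers had differences between 0.02 and 0.27, and none passed by limma or had an unadjusted p under 0.05. Of 11 macrophage markers, 10 lay below 0 with a median of -0.25, 2 of them at an unadjusted p under 0.05, and Cd163 had -0.51 (adjusted p = 0.663). Their mean deviation from the 20-array mean ran from -0.36 to 0.07 on the 1:1 high-isoflavone diet, against -0.19 to 0.72 on the conventional diet. Replicate 3 of the conventional diet alone gave the 0.72, and the means were -0.13 ± 0.16 on the 1:1 diet (SD, n = 5) and, without that array, -0.07 ± 0.11 on the conventional diet (SD, n = 4), against 0.09 ± 0.37 there with it. Of 11 pancreas markers, 9 lay below 0 and 2 of these had an unadjusted p under 0.05, with mean deviations from -0.17 to 0.12 on the 1:1 diet, against -0.02 to 0.22 on the conventional diet. Markers of endothelial, stellate, bile duct, lymphoid, neutrophil, red blood and fat cells had no called member. Their part in the called genes was not tested, and in whole liver fewer cells of a type and less RNA per cell cannot be told apart. RNA integrity, read as the 3′ minus 5′ log2 signal of beta-actin, averaged 1.43 ± 0.397 on the 1:1 high-isoflavone diet and 1.60 ± 0.202 on the conventional diet (SD, n = 5 each; exact permutation p = 0.421, two-sided, 0.468 adjusted over the array checks). The same measure of GAPDH averaged 0.867 ± 0.0461 on the 1:1 high-isoflavone diet and 0.822 ± 0.0813 on the conventional diet (exact permutation p = 0.349). That of hexokinase differed most, at -0.865 ± 0.257 on the 1:1 high-isoflavone diet and -1.31 ± 0.611 on the conventional diet (exact permutation p = 0.214), with 0.468 as the adjusted p of both. The part of RNA integrity in the called genes was not tested. The array medians were 2.51 ± 0.0485 on the 1:1 high-isoflavone diet and 2.53 ± 0.0210 on the conventional diet (exact permutation p = 0.357, 0.468 adjusted).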

How the data were processed

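Liver messenger RNA of 20 rats was measured on an Affymetrix rat array after guanidinium-phenol extraction and 3′ in vitro transcription labelling, per the labels' protocols. Arrays were grouped by title, and the wording of a title gave its diet, because no label ties titles to diet codes. The authors deposited 1 table of values normalized with SuperNORM, per the labels, with the probe summary and version not stated there. The deposited values were read as log10 signals, because the spike-in controls gave a slope of 0.997 per log10 unit (SD 0.0242 over 20 arrays). Multiplication by 3.3219 turned them into log2 values. Depth does not apply to arrays.

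Of 31099 probe sets, 57 controls and 3342 without any value (2 in both groups) were left out, leaving 27702. The platform annotation gave 1 symbol to 19157 of these, several to 394 and none to 8151, and each of 13468 genes was read from the probe set of highest 20-array mean. No 2 arrays held identical values. Differences were fitted with limma 3.58.1 (R 4.3.3), 1 mean per diet over all 20 arrays, eBayes with a trend, two-sided, and Benjamini-Hochberg adjustment over 27702 probe sets. The fit was tested on simulated data. Intervals are 95% and use moderated errors. Array checks used exact permutation tests over all 252 splits (scipy 1.17.1, Python 3.11.15).

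Genes are named by rule: every called gene, 9 further genes whose diets do not overlap, in order of unadjusted p, the 3 members with the lowest p of each of 39 lists and a set of genes of fat, sterol, estrogen and detoxification biology, of which 4 had no measured probe set under that symbol. A few list members beyond these, such as Atp5if1, Ndufa4, Ndufa5, Cyp4a1, Cpt1a and Fgf21, were chosen after their values were seen. Not every gene under the rule is named in the text, for instance those of the clock list. Of 744 list symbols, 612 were measured. The comparison, its members and the lists were chosen with earlier results of these data known. Alternatives were other normalizations, spread models and filters, array weights, the replicate number as a block, the compared arrays alone and each array left out. Promoters came from RefSeq (GRCr8), matched by gene ID.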

Additional observations from a re-analysis of the deposited data

Results flagged for a closer look

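In groups of 5 arrays, 61 measures were examined in both diets for a single array that stood far from the other 4, measured as the gap to its nearest neighbour over the whole range of the group. Of the 122 groups 10 passed the limit, and chance flags about 1 in 20 groups.

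On the 1:1 high-isoflavone diet the share was 0.825 for 4930522L14Rikl, 0.881 for Rpl26 and 0.848 for Rps24, each through the low value of replicate 2. It was 0.873 for Arhgap20, through the low replicate 4, and 0.721 for the 3′ minus 5′ signal of hexokinase, through the high replicate 2. On the conventional diet it was 0.727 for Timm8b through the low replicate 5, 0.853 for Me1 and 0.712 for Fads2, both through the low replicate 3. It was 0.786 for Pmvk through the low replicate 3 and 0.757 for Abca1 through the low replicate 1. Of these, Rpl26, Timm8b and 4930522L14Rikl were called genes, and in each the arrays of the diets did not overlap with the outlying array included. Their causes were not tested.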

How the results depend on the processing

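The 21 called probe sets kept their sign in all 30 other settings. The count of calls was 13 after centring and scaling of each array and 12 with the compared arrays alone. Without number 1 of all diets it was 13 (12 lower, 1 higher), of which 9 were among the 21. When each array was left out in turn it was 11 to 31. It was 19 after quantile normalization, 18 without a trend, 21 with robust eBayes, 26 without the dimmest probe sets, 21 without 2 arrays with a higher floor and 19 with array weights. With the replicate block it was 23, of which 19 were among the 21. Same-numbered arrays of the 2 soybean diets deviated together (correlation over 0.1) in 2 of 5 pairs. The correlation was 0.401 for number 1 and 0.125 for number 4, and the other pairs ran from -0.163 to 0.0378. Of 5 arrays, 2 correlated best with their own number, so the numbers are not read as pairs. What the number 1 arrays share was not tested. Probe sets with separate diets numbered 387, and 535 to 887 with each array left out and 1237 without number 1 of all diets, where fewer arrays have to separate. The count of genes called from the mean of all probe sets of a gene was 14.

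Signs turned only for genes far from passing, among those named. With 1 array left out the differences ran from -0.22 to 0.21 for Acaca, -0.0236 to 0.169 for Cftr, -0.215 to 0.0307 for Cyp1b1, -0.0980 to 0.0943 for Cyp3a23-3a1, -0.406 to 0.260 for Cyp7a1, -0.00284 to 0.115 for Igf1, -0.00196 to 0.409 for Nr1i3 and -0.19 to 0.25 for Scd. Cyp3a23-3a1 also gave 0.0869 without number 1 of all diets and 0.0499 with array weights, and Srebf1 gave 0.0527 without number 1. Alb gave -0.0147 after quantile normalization, and Stard4 gave 0.0337 as the mean of its probe sets. The cause was not tested. With 5 arrays a diet, low signals and single outlying arrays limit what can be called.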

Other observations

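Further gene groups had no called member by limma. Of 26 interferon response genes, 21 lay below 0 and 5 above, with a median of -0.12 against -0.01 over all genes, and 1 was lower at an unadjusted p under 0.05. Usp18, a protease that removes ISG15, had the lowest difference of that list, -0.86 (SE 0.451, adjusted p = 0.732), and Mx1, an antiviral GTPase, had -0.54 (SE 0.225, adjusted p = 0.639). Of 28 cell cycle genes, 19 lay below 0 with a median of -0.17, 3 were lower and 1 higher at an unadjusted p under 0.05, while Ccnd1, cyclin D1, lay above 0 at 1.06 (SE 0.380, adjusted p = 0.541). Of 46 proteasome genes, 23 lay above 0 and 23 below, with a median of 0.00, and 3 were higher and 1 lower at an unadjusted p under 0.05.

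Sex-typed and hormone-driven liver genes gave no call either. Rup2, a urinary protein of the male-predominant list, did not overlap between the diets, at 8.72 to 9.12 on the 1:1 high-isoflavone diet, against 9.20 to 9.43 on the conventional diet, a difference of -0.35 (SE 0.0861, adjusted p = 0.183). Dimmer probe sets of Rup2 had -0.06 (adjusted p = 0.952), -0.41 (adjusted p = 0.0780) and -0.44 (adjusted p = 0.875). Sel1l, an adaptor of protein degradation at the endoplasmic reticulum, did not overlap either, at 3.79 to 4.20 on the 1:1 high-isoflavone diet, against 3.44 to 3.73 on the conventional diet, a difference of 0.38 (SE 0.0949, adjusted p = 0.183). Of 14 thyroid-related genes, 10 lay above 0 with a median of 0.16. Of 18 genes of the growth hormone and IGF axis, 11 lay below 0, and Igf1 had 0.07 with an interval from -0.15 to 0.29. Of 18 clock genes, 0 had an unadjusted p under 0.05 by limma.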
